A study of Mus musculus with 6 samples.

Results

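Collagen chains were measured in challenged ear skin of 3 CLEC4C-DTR and 3 littermate control mice, and 40 of the 19938 genes with a level are described. A member is a gene whose symbol is Col, a number, a and a number. Of the 44 such genes Col2a1, Col9a1, Col9a2 and Col9a3, chains of cartilage, were left out, and each gene was read from its brightest probe set. By type there were 10 fibrillar chains, 9 of the basement membrane zone, 6 FACIT chains (fibril-associated collagens with interrupted helices) and 15 others. Mice of the CLEC4C-DTR group carried the CLEC4C-DTR transgene (genotype CLEC4C-DTR/+), in which CLEC4C, a human gene used to mark plasmacytoid dendritic cells, drives the receptor for diphtheria toxin. Controls were littermates labelled CLEC4C-DTR-. All 6 mice were 10 to 12 weeks old and were injected with toxin, 200 ng a dose, on days -1, 1, 3 and 5. All were painted on the shaved abdomen with 100 µL of 0.5% FITC (fluorescein isothiocyanate, a dye that sensitises skin) in acetone and dibutyl phthalate on days 0 and 2, and on the right ear with 20 µL on day 6. Each array held RNA of the whole FITC-treated ear of 1 mouse. The sources used here give neither the mouse strain nor the time from challenge to collection, and ears treated with solvent were not analysed here. Toxin was given to both groups, so effects of the transgene and of removing cells that express it cannot be told apart.

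Collagens are the main structural proteins of skin. Their chains wind around each other into a rope-like helix, which needs hydroxylated prolines and a glycine at regular intervals. Fibrillar collagens, led by types I and III, form the tension-bearing fibres that dermal fibroblasts secrete, and FACIT collagens sit on the surface of those fibres. Type IV collagen forms the sheet of basement membranes under epidermis and around vessels, while types VII and XVII fasten epidermis to dermis.

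Values are log2 levels after RMA (robust multi-array average, which normalises arrays at the level of probes). Levels of different chains cannot be set against each other, because each has its own probes. Differences are log2 differences, CLEC4C-DTR minus control, given with their standard error (SE), and a gene was called at an adjusted p of 0.05 with limma, adjusted over all 19938 genes. With 3 arrays per group, the number of arrays limits every value. Array medians lay between 6.17 and 6.23 (log2). CLEC4C-DTR replicate 1 correlated with control replicate 2 at 0.989 across probe sets, and with CLEC4C-DTR replicates 2 and 3 at 0.986 and 0.988, so it stood nearer to the controls than the other two did. Defining markers of skin lay far above those medians: the basal keratins Krt5 and Krt14 lay between 11.94 and 12.34, and the fibroblast proteoglycan Dcn between 12.53 and 12.91 (log2) on all arrays. Of 11 fibroblast markers 1 rose, Pdgfra, the platelet-derived growth factor receptor of dermal fibroblasts, by 0.53 (SE 0.11, log2, adjusted p = 0.0298), and none fell. Dcn and Lum, another proteoglycan of collagen fibres, lay lower with groups apart and did not pass, at -0.21 (adjusted p = 0.182) and -0.38 (adjusted p = 0.0975). Crabp1 lay higher with groups apart and did not pass, at 0.57 (adjusted p = 0.0687). Values were higher for 7 of the 11 fibroblast markers and lower for 4. The rises among these markers were 2 without CLEC4C-DTR replicate 1 and 0 in limma without any 1 of CLEC4C-DTR replicate 2, CLEC4C-DTR replicate 3, control replicate 1 and control replicate 3, where 2 or 3 were higher at an unadjusted p under 0.05.

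Before the values, promoter sequences are shown for chains on which the results below turn. They are those of Col8a1, which fell, of Col1a2 and Col3a1, fibre chains that were not called, and of Col7a1 and Col17a1, which anchor the epidermis. Each is the 250 bases before the gene's start, from RefSeq (build GRCm38.p6), 5′ to 3′ on the gene's own strand. Capitals mark TATAAA (the letters of a TATA box), CCAAT and GGGCGG (those of a GC box), found on either strand at any position. ATTGG and CCGCCC are thus reverse matches.
Col8a1, chr16:57754738-57754987, minus strand: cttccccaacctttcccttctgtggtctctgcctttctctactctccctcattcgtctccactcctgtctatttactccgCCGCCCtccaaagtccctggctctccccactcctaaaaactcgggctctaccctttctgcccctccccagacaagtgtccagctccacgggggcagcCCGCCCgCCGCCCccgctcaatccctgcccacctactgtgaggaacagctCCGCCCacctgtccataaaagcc
Col1a2, chr6:4505368-4505617, plus strand: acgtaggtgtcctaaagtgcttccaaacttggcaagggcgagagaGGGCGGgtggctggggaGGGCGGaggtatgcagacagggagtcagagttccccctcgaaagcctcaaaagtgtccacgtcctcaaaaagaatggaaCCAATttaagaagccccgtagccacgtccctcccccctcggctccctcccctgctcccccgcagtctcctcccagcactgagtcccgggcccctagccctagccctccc
Col3a1, chr1:45311288-45311537, plus strand: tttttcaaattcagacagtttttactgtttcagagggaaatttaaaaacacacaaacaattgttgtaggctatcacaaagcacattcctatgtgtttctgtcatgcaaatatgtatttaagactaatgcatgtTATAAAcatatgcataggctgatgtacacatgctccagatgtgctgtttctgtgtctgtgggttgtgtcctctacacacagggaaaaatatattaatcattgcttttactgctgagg
Col7a1, chr9:108953336-108953585, plus strand: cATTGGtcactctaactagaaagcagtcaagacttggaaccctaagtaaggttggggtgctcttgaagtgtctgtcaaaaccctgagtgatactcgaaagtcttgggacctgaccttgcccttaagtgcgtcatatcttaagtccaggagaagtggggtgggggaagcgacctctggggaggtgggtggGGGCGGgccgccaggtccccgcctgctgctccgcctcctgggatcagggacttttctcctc
Col17a1, chr19:47692043-47692292, minus strand: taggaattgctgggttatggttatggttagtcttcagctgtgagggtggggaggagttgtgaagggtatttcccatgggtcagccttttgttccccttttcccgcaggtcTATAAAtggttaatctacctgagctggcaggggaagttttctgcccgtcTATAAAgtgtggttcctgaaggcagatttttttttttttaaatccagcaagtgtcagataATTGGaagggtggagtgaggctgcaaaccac

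In these windows Col8a1 held 4 GGGCGG matches and no other motif, Col1a2 held 2 GGGCGG matches and 1 CCAAT match, and Col7a1 held 1 of each. Col3a1, at 35.2% G and C the poorest in these bases of the 5, held 1 TATAAA match, and Col17a1 held 2 beside 1 CCAAT match. Windows were found for 33 of the 40 chains, 35 in all, and Col14a1, Col1a1, Col5a2, Col12a1, Col4a3, Col22a1 and Col26a1 are named only. TATAAA lay in 14.3% of the chains' windows and in 12.4% of the 32851 windows of all genes, CCAAT in 34.3% and 33.8%, and GGGCGG in 60.0% and 32.7%. Matches overlapped each other in the windows of Col6a2 and Col8a2. A match is a stretch of letters and was not tested as a binding site.

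Col4a1 and Col4a2, the chains of the common type IV network, are neighbours that are read in opposite directions from almost the same place. Their listed starts lie at the ends of the 22 bases below, which stand on the strand of Col4a2 and hold 1 GGGCGG match. Both genes are read through these bases, so their listed 5′ ends overlap here.
Col4a2 and Col4a1, chr8:11312805-11312826, plus strand: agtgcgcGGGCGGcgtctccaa

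Of the 40 collagen chains 2 fell in CLEC4C-DTR skin, Col8a1 and Col14a1, none rose and 38 did not pass. Among all genes 9.32% were called, 4.31% lower (860) and 5.01% higher (998), or 644 lower and 1150 higher with median centring of the arrays, so that 2 falls among 40 chains is a share near the background. None of the 40 met the design text's threshold of a 2-fold change with an adjusted p under 0.05, which 2.05% of all genes met. The chains lay mostly below the controls without passing: the difference was negative for 33 of 40 (82.5%) and for 58.2% of all genes, and its median was -0.13 for the chains and -0.04 for all genes. With median centring 28 chains were lower, at a median of -0.09 for the chains and 0.01 for all genes. After a further quantile normalisation 30 were lower, with medians of -0.10 for the chains and -0.02 for all genes, and with CLEC4C-DTR replicate 2 left out 29 were lower, with medians of -0.09 and -0.03. The groups did not overlap for 15 chains, against 33.0% of all genes. In 13 of them CLEC4C-DTR was the lower group and in 2 the higher, against 19% (3791) and 14% (2790) of all genes. In whole skin, fewer cells of a type and less RNA per cell cannot be told apart. At an unadjusted p under 0.05, 10 chains were lower and 2 higher, 12 of 40 against 27.3% of all genes, and for the lower ones against 15.1%. Limma called 0 chains without moderation of variances and 0 with the unlisted probe sets added, where 6 and 9 chains were lower at an unadjusted p under 0.05.

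**Figure D1:**
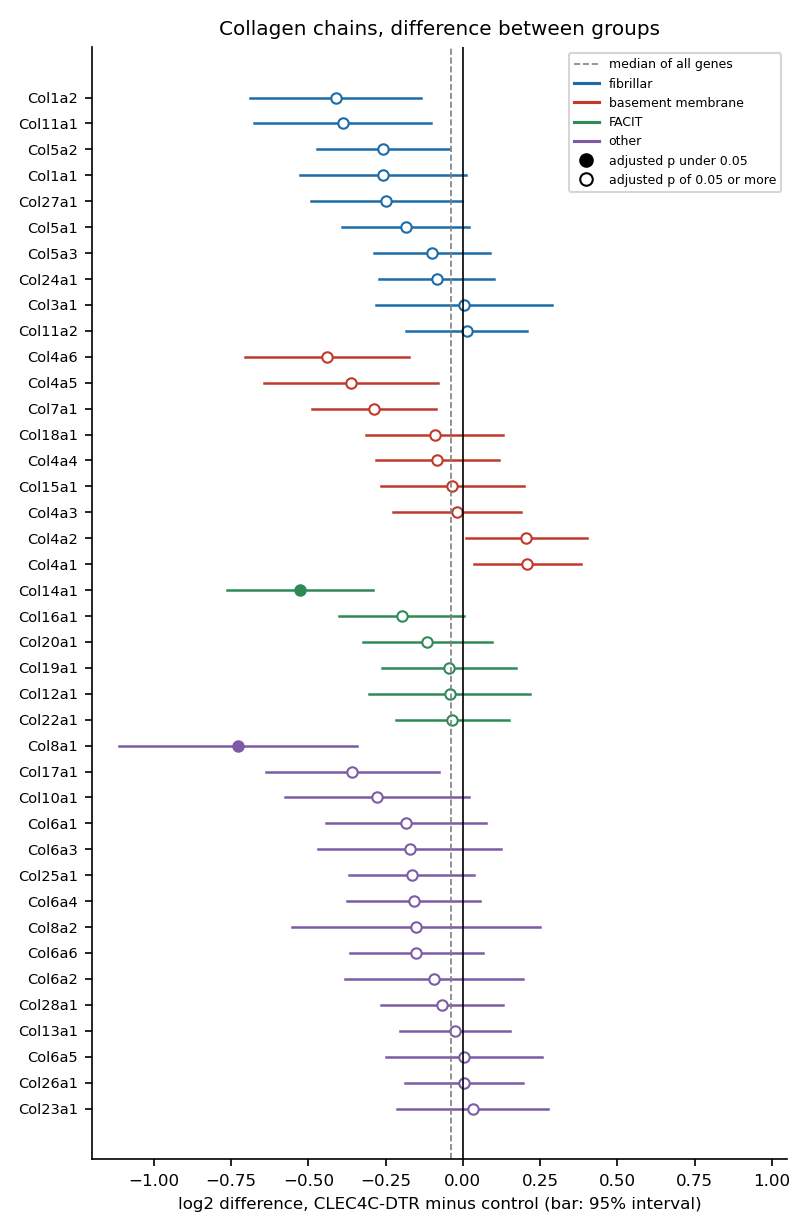
The log2 difference of each of the 40 collagen chains, CLEC4C-DTR minus control, is a point with its 95% interval (limma, n = 3 per group), coloured by class and filled where the adjusted p was under 0.05. Only Col8a1 and Col14a1 are filled, most points lie left of 0, and Col4a1 and Col4a2 lie at 0.21 to the right.

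Both calls depended on which arrays were kept, while the sizes stayed close. With 1 array left out the log2 difference ranged from -0.91 to -0.54 for Col8a1 and from -0.61 to -0.45 for Col14a1. Neither chain passed without CLEC4C-DTR replicate 2, CLEC4C-DTR replicate 3 or any 1 of the controls, where limma called 0 chains and 7 to 10 were lower at an unadjusted p under 0.05. Without CLEC4C-DTR replicate 1 the falls were 6: Col8a1, Col14a1, Col4a5, Col4a6, Col11a1 and Col17a1. The background moved too, from 0.336% of genes called without control replicate 3 to 13.1% without CLEC4C-DTR replicate 1. CLEC4C-DTR replicate 2 was the lowest of the 6 arrays for 22 of the 40 chains, CLEC4C-DTR replicate 3 for 9 and CLEC4C-DTR replicate 1 for 3, while each control was lowest for 1 to 3. The median chain lay 0.07, 0.20 and 0.09 (log2) below the control mean in replicates 1, 2 and 3 of CLEC4C-DTR. Over the 17 alternatives the adjusted p ranged from 0.00448 to 0.189 for Col8a1 and from 0.0197 to 0.150 for Col14a1, and each passed in 10.

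**Figure D2:**
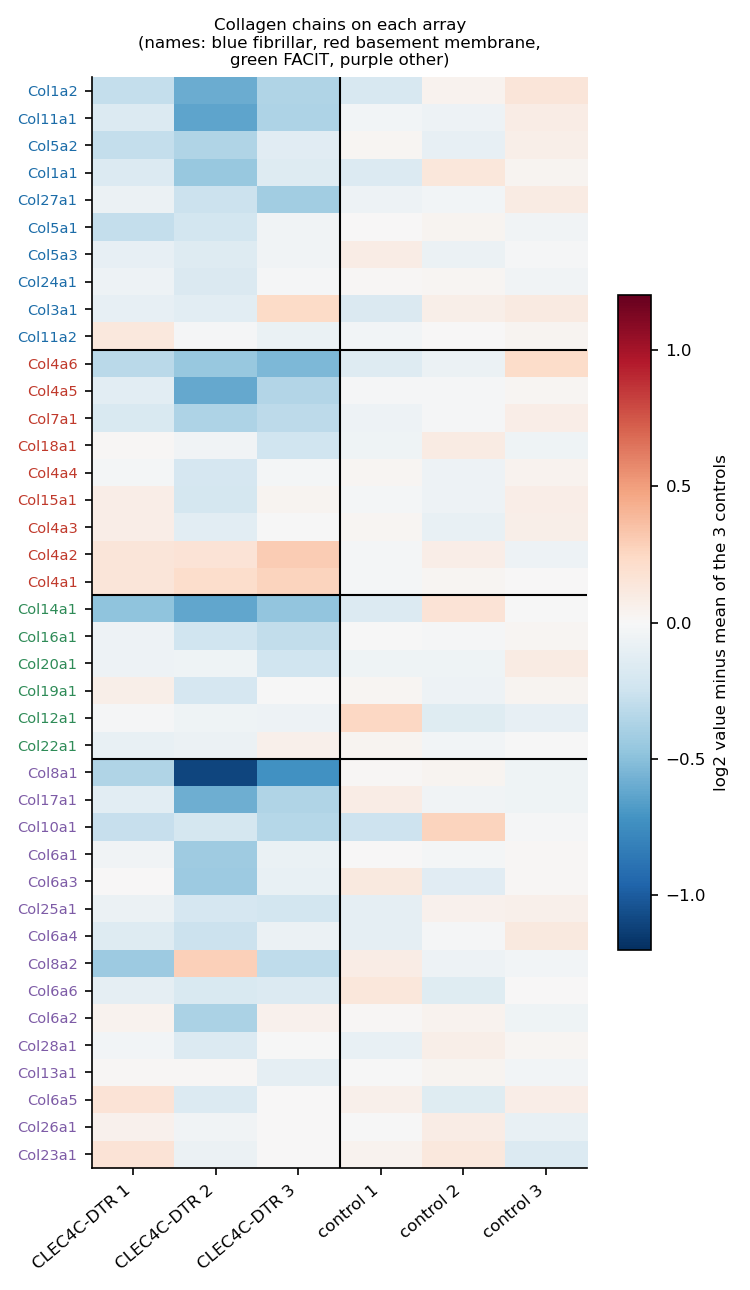
Each row is a collagen chain and each column an array, and colour gives the log2 value minus the mean of the 3 controls for that chain. The column of CLEC4C-DTR replicate 2 is the bluest, with its lowest cell at Col8a1, while the rows of Col4a1 and Col4a2 are red in all 3 CLEC4C-DTR mice.

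**Figure D3:**
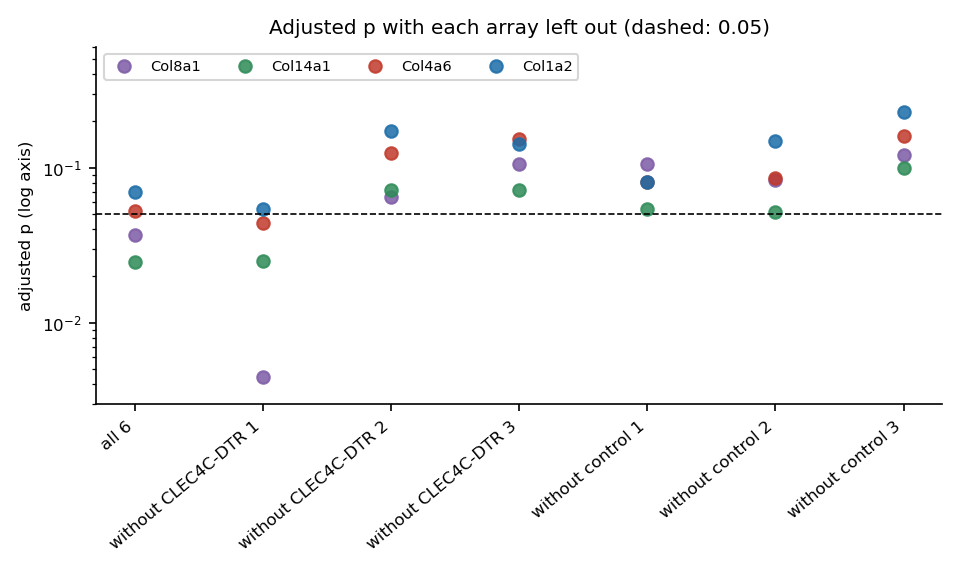
The adjusted p (limma, log axis) is plotted for Col8a1, Col14a1, Col4a6 and Col1a2 with all 6 arrays and with each array left out. Col8a1 and Col14a1 lie under the dashed line at 0.05 with all arrays and without CLEC4C-DTR replicate 1, and above it in the other 5 fits.

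Col8a1 fell the most. It encodes a short-chain collagen that forms hexagonal lattices and is made by vessel walls and by cells of injured tissue. Its log2 values were 9.49, 8.75 and 9.13 in CLEC4C-DTR replicates 1, 2 and 3, and 9.87, 9.88 and 9.80 in the controls. The groups did not overlap, and the CLEC4C-DTR values spread over 0.74 while the controls spread over 0.08. The difference was -0.73 (SE 0.17, adjusted p = 0.0368), which is 1.66-fold lower. Its partner Col8a2 had 5.70, 6.41 and 5.82 in CLEC4C-DTR skin and 6.22, 6.07 and 6.10 in controls, a difference of -0.15 that did not pass (SE 0.17, adjusted p = 0.628). The array with the least Col8a1, CLEC4C-DTR replicate 2, was the one with the most Col8a2.

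Col14a1 fell with the smallest p of all 40. It encodes collagen XIV, a FACIT chain that coats fibres of types I and III and is used as a marker of dermal fibroblasts. Its log2 values were 6.54, 6.39 and 6.54 in CLEC4C-DTR skin and 6.86, 7.18 and 7.02 in controls. The groups were apart, with every CLEC4C-DTR value below every control. The difference was -0.53 (SE 0.10, adjusted p = 0.0245), or 1.44-fold lower. Col12a1, the FACIT chain closest to it in build, had 8.46, 8.43 and 8.42 in CLEC4C-DTR skin and 8.73, 8.33 and 8.38 in controls. Its groups overlapped, and its difference was -0.04 with a 95% interval of -0.30 to 0.22. Col16a1, found near the dermal-epidermal junction, was lower by 0.20 with groups apart (log2, adjusted p = 0.189). Col19a1, Col20a1 and Col22a1, the last a chain of muscle-tendon junctions, differed by -0.03 to -0.12 with overlapping groups.

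The fibrillar chains held no call. Col1a1 and Col1a2 encode the chains of type I collagen, the bulk of dermal fibre. Col1a2 had log2 values of 8.67, 8.35 and 8.59 in CLEC4C-DTR skin and 8.76, 8.99 and 9.09 in controls. These groups did not overlap, and the difference of -0.41 (SE 0.12, adjusted p = 0.0701) did not pass. Col1a1 had 8.22, 7.93 and 8.23 in CLEC4C-DTR skin and 8.23, 8.52 and 8.42 in controls, so its groups met at their edge. Its difference was -0.26 (SE 0.12, adjusted p = 0.197).

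Col3a1, the single chain of type III collagen, which mixes with type I in pliable fibres, showed no shift. It had 8.87, 8.85 and 9.20 in CLEC4C-DTR skin and 8.80, 9.04 and 9.08 in controls. The groups overlapped, and the difference was 0.00 with a 95% interval of -0.28 to 0.29 (log2, adjusted p = 0.993), which leaves room for a change either way. Type V collagen starts fibres and sets their width, and its chain Col5a2 lies next to Col3a1 in the genome. Col5a2 had 6.83, 6.76 and 6.99 in CLEC4C-DTR skin and 7.14, 7.02 and 7.19 in controls, with groups apart and a difference of -0.26 (SE 0.09, adjusted p = 0.117). Col5a1 had 6.52, 6.59 and 6.77 in CLEC4C-DTR skin and 6.82, 6.85 and 6.77 in controls, where the highest CLEC4C-DTR value came just short of the lowest control, and the difference was -0.19 (adjusted p = 0.228). Col5a3 differed by -0.10 and Col24a1 by -0.09, both with overlapping groups.

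The remaining fibrillar chains, Col11a1, Col11a2 and Col27a1, are best known from cartilage, a part of the ear. Col11a1 had 6.64, 6.17 and 6.44 in CLEC4C-DTR skin and 6.77, 6.75 and 6.90 in controls, and its difference of -0.39 did not pass with all arrays (SE 0.12, adjusted p = 0.0885). It passed without CLEC4C-DTR replicate 1, at -0.50 (adjusted p = 0.0286, the lowest over its alternatives, which reached 0.263). Col27a1 was lower by 0.25 (log2, adjusted p = 0.179) with groups apart, and Col11a2 differed by 0.01 (log2) with overlapping groups. Col10a1, the short chain of cartilage that is about to turn to bone, was lower by 0.28 (log2, adjusted p = 0.210), and its groups overlapped. Of 12 cartilage markers 5 fell, none rose and all 12 had lower values in CLEC4C-DTR skin. The log2 of their summed linear levels ranged from 10.71 to 11.34 in CLEC4C-DTR skin and from 11.76 to 11.92 in controls. In such a sum, here and below, the brightest probe sets weigh most, so it is not a measure of the whole list. Among them Chad, a matrix protein of cartilage, fell by 1.23 and Acan, its main proteoglycan, by 0.69 (log2 differences, with adjusted p of 0.0217 and 0.0496). These falls were 0 in limma without CLEC4C-DTR replicate 3, control replicate 1 or control replicate 3, where 6 to 8 markers were lower at an unadjusted p under 0.05, and 1 without CLEC4C-DTR replicate 2 or control replicate 2. The part of cartilage in the differences of these chains was not tested.

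The chains of the basement membrane zone went in unlike directions, with 2 higher values and 7 lower, and limma called none of the 9. At an unadjusted p below 0.05, 2 were higher and 3 lower, 5 of 9 against 27.3% of all genes. Col4a1 had 7.10, 7.17 and 7.21 in CLEC4C-DTR skin and 6.93, 6.97 and 6.95 in controls. Col4a2 had 6.88, 6.89 and 7.03 in CLEC4C-DTR skin and 6.70, 6.81 and 6.67 in controls. For both, every CLEC4C-DTR value lay above every control, alone among the 40 chains as read from their brightest probe sets. The differences were 0.21 (SE 0.08, adjusted p = 0.122) for Col4a1 and 0.21 (SE 0.09, adjusted p = 0.167) for Col4a2, and neither passed under any of 17 alternatives. Endothelial cells are a main source of both chains. Of 10 endothelial markers, 1 rose, the adhesion molecule Pecam1, by 0.40 (log2, adjusted p = 0.0312), and none fell, while 7 had lower values. Erg and Tek lay lower with groups apart and did not pass, at -0.24 and -0.23 (log2, adjusted p = 0.136 and 0.174). Of these markers 1 was called higher with CLEC4C-DTR replicate 1 left out, and limma called 0 higher without any other single array, where 1 or 2 were higher at an unadjusted p under 0.05. The log2 of their summed linear levels was 10.37 to 10.45 in CLEC4C-DTR skin and 10.32 to 10.40 in controls. Pecam1 is also made by leukocytes, and the part of either cell in the Col4a1 and Col4a2 values was not tested.

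Col4a5 and Col4a6, which form a type IV network under epidermis, are neighbours on chromosome X and both lay lower. Col4a6 had 5.33, 5.20 and 5.12 in CLEC4C-DTR skin and 5.50, 5.59 and 5.88 in controls, with groups apart. Its difference was -0.44 (SE 0.12, adjusted p = 0.0526), and it passed with array weights (adjusted p = 0.0445) and without CLEC4C-DTR replicate 1 (adjusted p = 0.0441), in a range of up to 0.188 over its alternatives. Col4a5 had 6.01, 5.52 and 5.78 in CLEC4C-DTR skin and 6.12, 6.12 and 6.16 in controls, and its difference of -0.36 passed only without CLEC4C-DTR replicate 1 (adjusted p = 0.103 with all arrays and 0.0254 without it, and up to 0.263 in other alternatives). Col4a3 and Col4a4, the pair best known from the kidney glomerulus, differed by -0.02 and -0.08 with overlapping groups. Col15a1 and Col18a1, the multiplexins, sit in basement membranes of vessels, muscle and epidermis. Col15a1 had 6.77, 6.48 and 6.72 in CLEC4C-DTR skin and 6.67, 6.63 and 6.77 in controls, and Col18a1 had 6.50, 6.45 and 6.25 in CLEC4C-DTR skin and 6.44, 6.59 and 6.44 in controls. The groups overlapped for both, at differences of -0.03 and -0.09.

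The chains that fasten epidermis to dermis lay lower in all 3 CLEC4C-DTR mice, without passing. Col7a1 forms the anchoring fibrils below the basement membrane. It had 6.98, 6.79 and 6.85 in CLEC4C-DTR skin and 7.09, 7.14 and 7.24 in controls, a difference of -0.29 (SE 0.09, adjusted p = 0.0773). Col17a1, counted among the other chains, is a transmembrane collagen of hemidesmosomes, the rivets of basal keratinocytes. It had 9.14, 8.69 and 8.91 in CLEC4C-DTR skin and 9.37, 9.23 and 9.22 in controls, a difference of -0.36 (SE 0.12, adjusted p = 0.103), and with CLEC4C-DTR replicate 1 left out it passed at an adjusted p of 0.0294, while other alternatives reached 0.255. Both are made by basal keratinocytes. Of 8 basal keratinocyte markers, 1 fell, the hair follicle keratin Krt15, at a log2 difference of -1.59 (adjusted p = 0.0193), and none rose. Values were lower for 7 of the 8, and for 4 every CLEC4C-DTR value lay below every control. Besides Krt15 these were Dst, Trp63 and Itga6, at -0.31, -0.33 and -0.21, which did not pass (adjusted p = 0.0589, 0.110 and 0.200). Krt14, at 0.02, was the 1 marker with a higher value. The falls were 3 without CLEC4C-DTR replicate 1 and 0 in limma without any 1 of CLEC4C-DTR replicate 3, control replicate 1 and control replicate 3, where 2 or 3 were lower at an unadjusted p under 0.05. The log2 of the markers' summed linear levels was 13.52 to 13.73 in CLEC4C-DTR skin and 13.86 to 13.94 in controls. The part of basal keratinocytes in the Col7a1 and Col17a1 values was not tested.

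**Figure D4:**
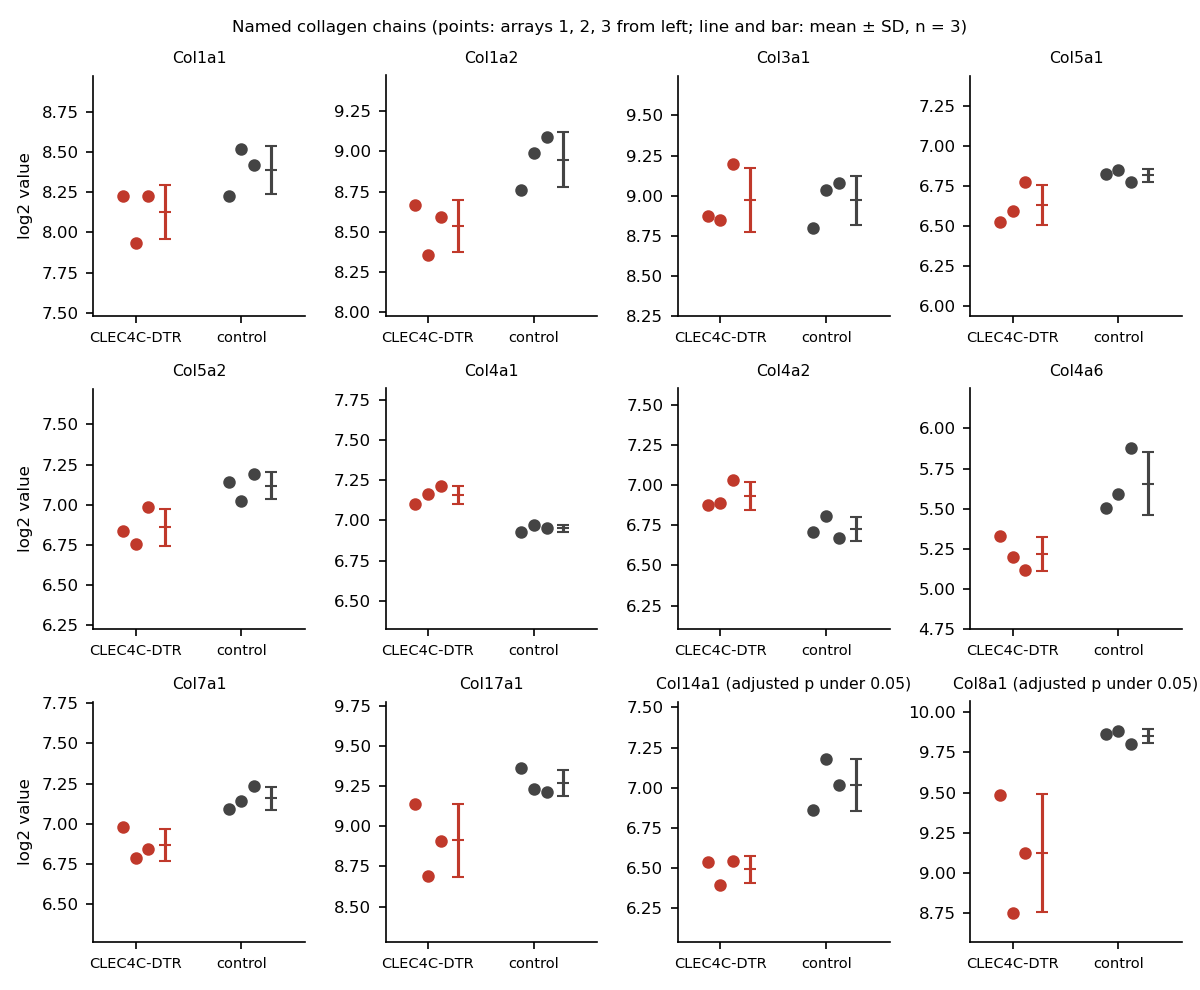
Log2 values of 12 collagen chains are points for the 3 CLEC4C-DTR and 3 control arrays, in replicate order from the left, with the mean ± SD (n = 3) beside them, and every panel spans the same 1.5 log2 units. The groups lie apart for all but Col1a1 and Col3a1, with Col4a1 and Col4a2 the panels in which CLEC4C-DTR is higher.

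Type VI collagen forms beaded filaments around cells and links them to the fibres. Col6a1 had 8.45, 8.06 and 8.41 in CLEC4C-DTR skin and 8.50, 8.47 and 8.51 in controls. Col6a2 had 7.95, 7.53 and 7.96 in CLEC4C-DTR skin and 7.92, 7.95 and 7.85 in controls. Col6a3 had 9.01, 8.57 and 8.91 in CLEC4C-DTR skin and 9.12, 8.87 and 9.02 in controls. For all 3 of these chains CLEC4C-DTR replicate 2 was the lowest array, and the other CLEC4C-DTR arrays lay at or near the controls. The groups were apart for Col6a1, with CLEC4C-DTR lower, and overlapped for Col6a2 and Col6a3. The differences were -0.18, -0.09 and -0.17, with adjusted p of 0.335, 0.680 and 0.436 in limma, and without CLEC4C-DTR replicate 2 they were -0.06, 0.05 and -0.04. The later chains Col6a4, Col6a5 and Col6a6, neighbours in the genome, differed by -0.16, 0.00 and -0.15 with overlapping groups. A second, dimmer probe set of Col6a5 differed by 0.21 (log2), with every CLEC4C-DTR value above every control. That of Col6a6 differed by -0.01 (log2), so the probe sets of each gene did not move alike. Of the transmembrane chains, Col13a1, Col23a1 and Col25a1 differed by -0.03, 0.03 and -0.17, and Col26a1 and Col28a1 differed by 0.00 and -0.07, all 5 with overlapping groups.

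Chains that build one molecule or share a start were compared within each array. The log2 ratio of the first chain to the second was tested between groups for 8 pairs with a two-sided exact permutation test, which cannot go below 0.1 with 3 against 3. Col1a1 over Col1a2 gave -0.44, -0.42 and -0.36 in CLEC4C-DTR skin and -0.53, -0.47 and -0.68 in controls, a difference of 0.15 (exact p = 0.1, adjusted p = 0.533 over the 8 pairs). Col4a1 over Col4a2 gave 0.22, 0.28 and 0.18 in CLEC4C-DTR skin and 0.22, 0.16 and 0.28 in controls. That difference of 0.00 was smaller than the SD of 0.05 in CLEC4C-DTR skin and 0.06 in controls (exact p = 0.9). For the other 6 pairs, Col5a1 with Col5a2, Col4a3 with Col4a4, Col4a5 with Col4a6, Col6a1 with Col6a2 and with Col6a3, and Col8a1 with Col8a2, the differences ran from -0.58 to 0.08 and the exact p from 0.2 to 1. The widest, that of Col8a1 over Col8a2, was 3.79, 2.34 and 3.30 in CLEC4C-DTR skin and 3.65, 3.81 and 3.70 in controls, a difference of -0.58 that was -0.18 without CLEC4C-DTR replicate 2.

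Enzymes that make collagen did not share one direction. Of 18 measured genes of synthesis and folding only P4hb rose and none fell, and 17 did not pass, at a median difference of -0.06. P4hb is a disulfide isomerase that is also the beta subunit of prolyl hydroxylase. It had 10.65, 10.60 and 10.68 in CLEC4C-DTR skin and 10.23, 10.22 and 10.10 in controls, a difference of 0.46 (SE 0.08, adjusted p = 0.0184), and it also serves proteins other than collagen. P4ha2, a catalytic subunit of the same enzyme, was lower by 0.41 (log2, adjusted p = 0.0637). The lysyl hydroxylases Plod3 and Plod2 differed by 0.39 and -0.25 (adjusted p = 0.0795 and 0.0839). Among 13 genes of procollagen processing and cross-linking 2 fell and none rose. Pcolce2, which enhances removal of the procollagen C-terminal propeptide, fell by 0.95 (SE 0.15, adjusted p = 0.0167), and Adamts14, which removes the N-terminal one, by 0.54 (SE 0.13, adjusted p = 0.0442), both on the log2 scale. The cross-linking enzyme Loxl4 was lower by 0.42 (log2, adjusted p = 0.128). Without CLEC4C-DTR replicate 3, control replicate 1 or control replicate 3, limma called 0 genes in both lists, where 2 genes of processing were lower and 2 or 3 of synthesis higher at an unadjusted p under 0.05. The falls in processing were 1 without CLEC4C-DTR replicate 2 or control replicate 2, and the rises in synthesis 2 without control replicate 2.

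Genes of collagen breakdown moved in both directions. Among the 13 there were 6 rises, 3 falls and 4 that did not pass, where 9.32% of all genes were called, and all 13 had an unadjusted p under 0.05, against 27.3% of all genes. Mmp13, a collagenase that cuts fibrillar collagen, had 6.93, 9.15 and 8.45 in CLEC4C-DTR skin and 4.82, 5.26 and 5.35 in controls, a rise of 3.04 (SE 0.48, adjusted p = 0.0166). The gelatinase Mmp9 rose by 2.27 (SE 0.36, log2, adjusted p = 0.0164) and the stromelysin Mmp3 by 1.64 (SE 0.26, log2, adjusted p = 0.0169). Timp3, an inhibitor of these proteases that is bound to matrix, fell by 1.06 (SE 0.17, log2, adjusted p = 0.0172). The other rises were those of the neutrophil collagenase Mmp8, the membrane-bound Mmp14 and the inhibitor Timp1, and the other falls those of the fibroblast protease Fap and the inhibitor Timp2, all 5 named after their values were seen. Of 6 neutrophil markers all rose, and Mmp9 stands in both lists. The log2 of the markers' summed linear levels was 14.17 to 14.75 in CLEC4C-DTR skin and 12.70 to 12.95 in controls. The brightest, S100a9 and S100a8, weigh most in it, with means of 13.29 and 13.10 in CLEC4C-DTR skin and 11.80 and 11.49 in controls (log2). Which cells of the ear made them was not tested. The neutrophil rises were 4 with CLEC4C-DTR replicate 2 left out, 2 without CLEC4C-DTR replicate 3 or control replicate 3, and 3 without control replicate 1, while all 6 were higher at an unadjusted p under 0.05 in each of these fits. The part of infiltrating cells in the protease values was not tested. The calls in the breakdown list changed with the arrays kept: 1 rise and no fall without CLEC4C-DTR replicate 3, 3 and 1 without CLEC4C-DTR replicate 2, 1 and 1 without control replicate 1, 3 and 2 without control replicate 2, and none without control replicate 3, where 6 were higher and 3 lower at an unadjusted p under 0.05.

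**Figure D5:**
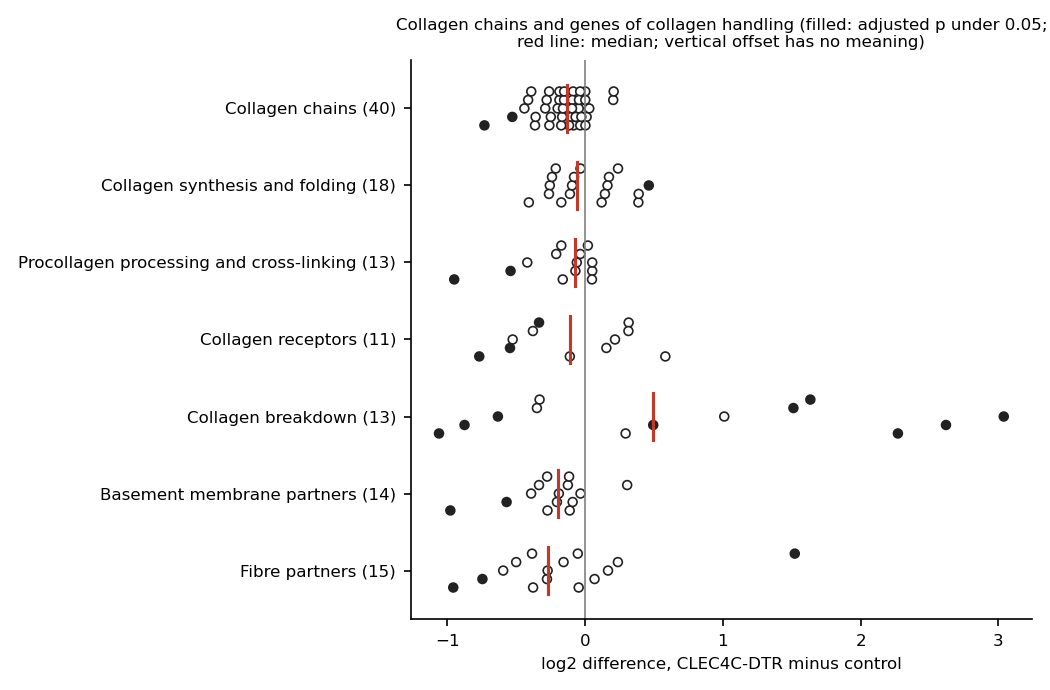
The log2 difference of each gene, CLEC4C-DTR minus control, is a point in the row of its list, filled where the adjusted p was under 0.05, with the median as a red line and the number of genes in brackets. The collagen chains span -0.73 to 0.21, while genes of collagen breakdown span -1.06 to 3.04.

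Receptors and partners of collagen held a few falls. Of 11 collagen receptors 3 fell and none rose. These were Itga10, an integrin subunit of cartilage cells that binds collagen, by 0.54 (adjusted p = 0.0164), Adgrg6, a receptor that binds type IV collagen, by 0.77 (adjusted p = 0.0178), and Mrc2, an uptake receptor for collagen fragments, by 0.33 (adjusted p = 0.0437), all on the log2 scale. Itga1, the integrin subunit that binds type IV collagen, was higher by 0.58 with groups apart and did not pass (log2, adjusted p = 0.0618). Among 14 laminins and other partners of the basement membrane 2 fell and none rose. Lama5, a laminin chain under epidermis, fell by 0.57 (adjusted p = 0.0332) and Lama2, the laminin chain of muscle and nerve, by 0.98 (adjusted p = 0.0369) on the log2 scale. Lamb2 and Agrn differed by -0.39 and -0.27 with groups apart and did not pass (log2, adjusted p = 0.0589 and 0.0665). Nid1, which joins laminin to type IV collagen, was higher by 0.31 with groups apart (log2, adjusted p = 0.107). It was the 1 partner with a higher value, while 13 of the 14 had lower values, at a median of -0.20. Leaving out CLEC4C-DTR replicate 1 turned the 3 receptor falls into 5, and they were 2 without CLEC4C-DTR replicate 2 or control replicate 2, and 0 in limma without any 1 of CLEC4C-DTR replicate 3, control replicate 1 and control replicate 3, where 4 or 5 were lower at an unadjusted p under 0.05. The falls of basement membrane partners were 2 without CLEC4C-DTR replicate 1 and 0 without any other array, where 4 to 6 were lower at that level.

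Of 15 partners of collagen fibres 1 rose and 2 fell. Eln, the elastin of stretchable fibres, had 7.34, 7.12 and 7.25 in CLEC4C-DTR skin and 7.88, 8.03 and 8.03 in controls, a fall of 0.74 on the log2 scale (SE 0.09, adjusted p = 0.0107). Dpt, which binds decorin and speeds fibre formation, fell by 0.96 (log2, adjusted p = 0.0225), and Tnc, a matrix protein of wounds, rose by 1.52 (log2, adjusted p = 0.0184). Leaving out CLEC4C-DTR replicate 1 gave 5 falls in this list, against 1 without CLEC4C-DTR replicate 2, CLEC4C-DTR replicate 3 or control replicate 1, and 0 in limma without control replicate 3, where 5 were lower at an unadjusted p under 0.05. The rise was lost without CLEC4C-DTR replicate 3 or control replicate 3, where 1 was higher at that level. Markers of other tissues of the ear lay mostly lower as well. Values were lower for all muscle and pericyte markers and for 5 of the 6 adipocyte markers. Lipe, the adipocyte marker that went the other way, was higher by 0.30 with groups apart and did not pass (log2, adjusted p = 0.0980). Of 6 skeletal muscle markers 3 fell, of 6 adipocyte markers 2 fell and of 8 pericyte and smooth muscle markers 1 fell, with none called higher in these lists. Limma called 0 of these falls in all 3 lists without any 1 of CLEC4C-DTR replicate 2, CLEC4C-DTR replicate 3, control replicate 1 and control replicate 3, where 4 to 6 muscle, 4 or 5 adipocyte and 2 or 3 pericyte markers were lower at an unadjusted p under 0.05. The muscle falls were 4 without CLEC4C-DTR replicate 1 and 1 without control replicate 2, and the adipocyte falls 3 without CLEC4C-DTR replicate 1. The log2 of the summed linear levels was 11.85 to 12.31 in CLEC4C-DTR skin and 12.54 to 13.14 in controls for muscle markers. It was 8.84 to 9.10 and 9.34 to 9.91 for adipocyte markers, and 10.13 to 10.43 and 10.61 to 10.76 for pericyte markers. Of 6 macrophage markers 5 rose, of 6 T cell markers 1 rose and of 3 measured Schwann cell markers none was called by limma, while 1 had an unadjusted p below 0.05. The macrophage rises were 3 with CLEC4C-DTR replicate 2 left out, 1 with CLEC4C-DTR replicate 3 left out and 2 without either control replicate 1 or control replicate 3. The T cell rises were 3 with median centring, with the replicate block or without CLEC4C-DTR replicate 1, and 0 in limma without control replicate 3, where 5 were higher at an unadjusted p under 0.05. The part of these cells in the values of the collagen chains was not tested.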

How the data were processed

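Total RNA of whole ear skin was biotinylated and run on Affymetrix Mouse Gene 1.0 ST arrays, 1 mouse per array, per the labels. The deposited log2 values were made by the authors with RMA, per the series' design text. That they are on a log2 scale was judged from their range, and no source used here names the RMA software. The build mm8 stands in the submitters' processing notes without a role. RMA normalises arrays at the level of probes, so medians over probe sets can still differ, and it compresses differences of dim genes. No background measure was used, so no gene was called present or absent.

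Of 35556 probe sets, the platform annotation gives 1 symbol to 21789, several to 1621 and does not list 12146. Single-symbol probe sets were kept, the brightest per gene over all arrays, which gave 19938 genes with no filter on level; 23 of the 40 chains lay above the median level of all genes. A RefSeq table held 21698 of the Entrez identifiers (GRCm38.p6), and was used for names and neighbours. Groups were compared with limma 3.58.1 (lmFit and eBayes, R 4.3.3), two-sided, with Benjamini-Hochberg adjustment over all genes; every adjusted p of a gene is from such a fit. On simulated data for this comparison, over 19938 genes, the step recovered 17 of 50 genes changed by 0.5, 47 of 50 by 1, 50 of 50 by 2 and 50 of 50 by 3 (log2), with 5 false calls among 169. Only those genes were changed, and noise was normal, independent and equal in all arrays, with variances drawn from limma's fit. The measured data had 1858 calls and unequal arrays, so these shares check the step and need not hold for them. No arrays held identical values, and the replicates are separate mice.

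The members and lists were chosen with earlier results of these data known, so no list is independent support. Array values are given for called chains, for 16 chains fixed by name and for the chain with the smallest p in each class. Other chains are given by their differences, with array values added for Col8a2, Col4a5 and Col11a1 after their values were seen. Of each further list up to 4 genes with the smallest p were eligible. Nid1, Acan, Krt5 and Krt14 are given beyond that rule, as are the breakdown genes named after their values were seen. List members without a single-symbol probe set were not analysed here. Replicate numbers occur in both groups; the deviations of same-numbered arrays from their group means correlated at -0.06, 0.22 and 0.10, so the numbers were not taken as pairs. Motifs were searched in RefSeq promoter windows. Alternatives were other scalings, filters, moderations, array weights, probe set rules, a replicate block and each array left out. Plots used matplotlib 3.10.9 (Python 3.11.15).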

Additional observations from a re-analysis of the deposited data

How the results depend on the processing

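The 2 falls, Col8a1 and Col14a1, stood with other scalings, the filter on level, other moderation of variances across genes, other probe set rules and the replicate block, which left the count of collagen chains at 2 lower and 0 higher with 2084 genes called in all. With array weights the falls were 3. They were 0 without moderation across genes, where limma's fit also gave 0 genes in all with 4387 at an unadjusted p under 0.05 and 6 chains lower at that level, and 0 with the unlisted probe sets added, where 98 genes passed of 32084, 6871 had an unadjusted p under 0.05 and 9 chains were lower at that level. With 1 array left out the falls ranged from 0 to 6 and the genes called from 67 to 2617. All genes split into 998 higher and 860 lower, or 1150 higher and 644 lower with median centring, which moved the median of all genes by under 0.1. Of the 40 chains, 28 kept their sign under every one of up to 17 alternatives, and of the 663 values so obtained 30 had the opposite sign, each of a chain within 0.1 of 0 in the main fit. With median centring these were Col12a1 at 0.0017, Col13a1 at 0.019, Col15a1 at 0.010, Col22a1 at 0.011 and Col4a3 at 0.026. After a further quantile normalisation they were Col13a1 at 0.014, Col19a1 at 0.00414, Col22a1 at 0.00375, Col3a1 at -0.037 and Col4a3 at 0.041, and with array weights Col11a2 at -0.0028 and Col6a5 at -0.00601. With 1 array left out the log2 difference ranged from -0.046 to 0.059 for Col11a2, -0.117 to 0.079 for Col12a1, -0.046 to 0.013 for Col13a1, -0.092 to 0.056 for Col15a1, -0.103 to 0.032 for Col19a1, -0.053 to 0.096 for Col23a1, -0.042 to 0.050 for Col26a1, -0.111 to 0.066 for Col3a1, -0.067 to 0.037 for Col4a3, -0.167 to 0.050 for Col6a2 and -0.078 to 0.084 for Col6a5. The cause of these changes was not tested. Most chains differed by less than 0.2, and 3 arrays per group limit what can be called at that size.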
